A study of Mus musculus with 60 samples.

Results

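The nuclear genes for the subunits of the mitochondrial respiratory chain and ATP synthase were examined across 15 mouse tissues. Members were taken by symbol from the deposited count table: Nduf genes of the a, b, c, s and v series (complex I), Sdha to Sdhd (complex II), Uqcr genes (complex III), Cox4 to Cox8 genes (complex IV) and Atp5 genes (complex V). The rule matched 97 of 54532 genes, 8 hyphenated symbols were left out, and 89 members remained, 40 in complex I, 4 in complex II, 8 in complex III, 19 in complex IV and 18 in complex V. Of the 89, 82 had enough reads to be tested, among 18562 genes tested in all. The 7 others were 4 processed pseudogenes, Cox7b2 with 16 reads in 9 libraries, Cox8c with 2 reads, and a second entry of Atp5o with 0 reads.

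The study profiled polyadenylated RNA from heart, kidney, liver, small intestine, colon, brain, skin, lung, female reproductive tract, thymus, inguinal lymph node, mesenteric lymph node, bone marrow, spleen and blood, with 4 libraries per tissue and 60 in all. The donors were female C57BL6/J mice, 6 weeks old, all perfused with buffered saline and EDTA before dissection. Each library was a 3′ oligo(dT) library from total RNA, so a read count is about 1 end per transcript, and levels are given as CPM (read counts scaled to a common library size) after TMM scaling and are compared between tissues, not between genes. Blood is called PBMC in the study's design and whole blood in its tissue label, and no label ties a replicate number to a mouse, so p-values measure the spread between these libraries.

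The respiratory chain passes electrons from NADH and succinate to oxygen through complexes I to IV and uses the resulting proton gradient to drive ATP synthase, complex V. Most of its subunits are encoded in the nucleus and a few of the core ones in the mitochondrial genome. Some complex IV subunits exist as paralogs of which mice use one in heart and skeletal muscle (Cox6a2, Cox7a1, Cox8b) and another in most other tissues (Cox6a1, Cox7a2, Cox8a).

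Libraries held 353605 to 5211133 reads (median 2649668), and no 2 libraries were identical. Female reproductive tract replicates 3 (the shallowest library) and 4 and thymus replicate 4 stood apart from the other libraries of their tissues. Tissue identity was checked with marker lists: 8 cardiomyocyte genes summed to 84254 CPM in heart, and 10 skeletal muscle genes to 16086 CPM in skin and 1224 CPM in heart. In bulk tissue, fewer cells of a type and less RNA per cell cannot be told apart.

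By TMM-scaled CPM, the 82 members were highest in heart, followed by kidney, liver and the intestine, and lowest in spleen and blood. The median member stood at 1218 ± 40.9 CPM in heart, 395.4 ± 9.60 CPM in kidney, 377.2 ± 24.7 CPM in liver, 299.9 ± 23.6 CPM in small intestine, 283.5 ± 11.6 CPM in colon, 75.21 ± 1.76 CPM in spleen and 71.01 ± 6.54 CPM in blood (SD, n = 4 each). Libraries of the neighbours kidney and liver overlapped in this median, as did those of small intestine and colon and those of spleen and blood, while no other tissue reached the heart libraries. Members together made up 11.1% ± 0.163 of the reads outside the mitochondrial genome in heart, 4.78% in kidney, 4.11% in colon, 3.29% in small intestine, 2.58% in liver, 1.12% in spleen and 0.902% in blood. Of the 82 members, 77 had their highest TMM-scaled tissue mean in heart. The 5 others were Cox6a1 and Cox8a (kidney), Cox4i2 (lung), Ndufa4l2 (skin) and Cox6b2 (bone marrow). The lowest mean fell in blood for 53 members and in spleen for 16. Across the 15 tissue means, 70 of 82 members had a Pearson correlation above 0.9 with the median member (median 0.973), which describes points that share libraries and scaling.

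**Figure D1:**
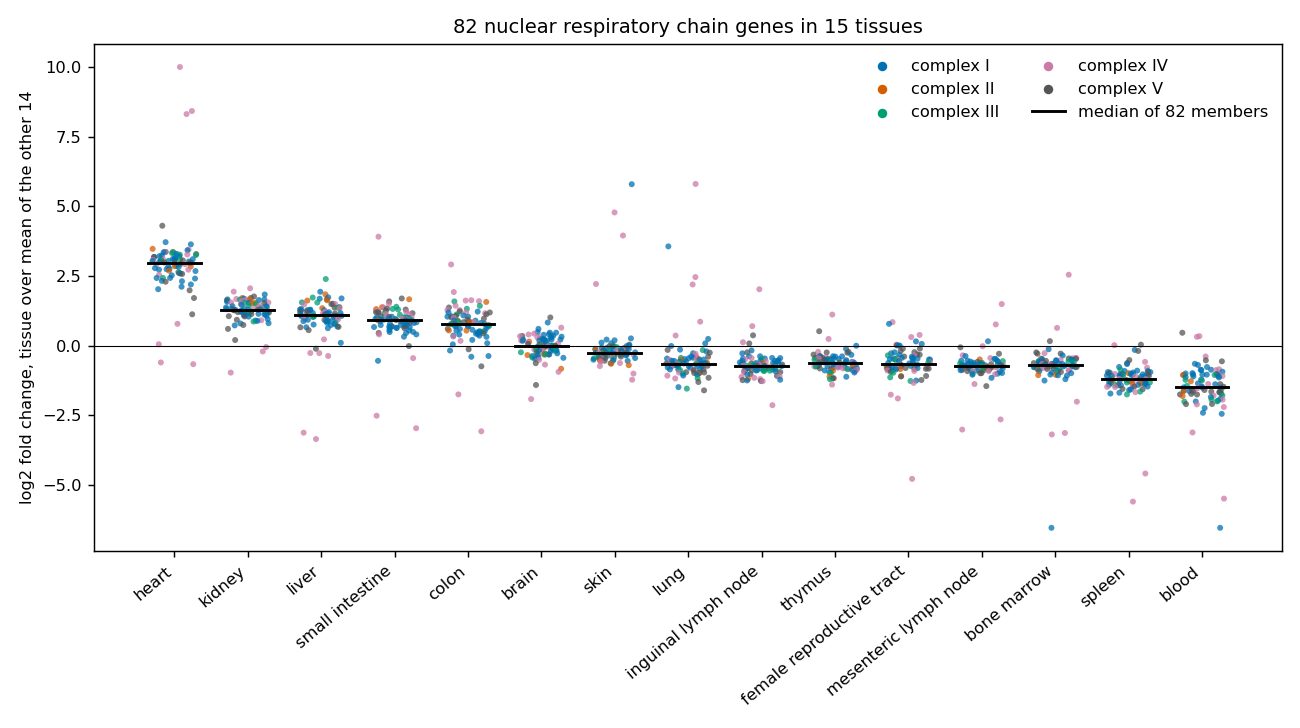
The vertical axis is the log2 fold change of each tissue over the mean of the other 14, with 1 point for each of 82 members, coloured by complex, and a bar at the median. Heart stands apart at a median of 2.98, kidney, liver, small intestine and colon lie above 0, and spleen and blood lie lowest. The points at the bottom of bone marrow and blood are genes with 0 reads there, whose fitted values are no bound.

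Each tissue was then compared with the mean of the other 14 tissue means on the log2 scale, and a call required an adjusted p (edgeR quasi-likelihood test, Benjamini-Hochberg) below 0.05 and a log2 fold change above 1 or below -1. In heart, 78 of 82 members were called higher, against 20.7% of all genes tested. Their median log2 fold change was 2.98, against -0.12 over all genes. No member was called lower in heart, and Cox7a2l, Cox8a, Cox6a1 and Cox6b2 were not called. TMM scaling and scaling by library totals gave different zero points: in heart the all-gene median was -0.12 by TMM and -1.38 by library totals, and the members stood 3.10 and 3.0 above it. With library totals 69 members were called higher in heart, against 8.08% of genes, and 3 lower (Cox6a1, Cox6b2 and Cox8a), against 45.4%. The share of higher calls among all called genes was 61.6% by TMM and 15.1% by library totals. In the other comparisons this share was 69.6% by TMM and 49.8% by library totals in kidney, 52.5% and 19.5% in liver, 70.1% and 60% in small intestine, 55.2% and 70.8% in colon, 66.0% and 83.2% in spleen and 50.4% and 67.1% in immune tissues. It was 50.5% and 58.2% in blood, 42.5% and 16.1% for heart against kidney, and 44.6% and 10.2% for heart against skin. The members' distance from the all-gene median moved little. It was 1.26 by TMM and 1.25 by library totals in kidney, 0.91 under either in small intestine and 0.93 and 0.94 in colon. In blood it was -1.29 and -1.28, in spleen -1.18 and -1.17 and in immune tissues -1.26 and -1.24.

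Complex I rose as a whole in heart, with 37 of 37 tested members called higher and a median log2 fold change of 2.98. The range ran from 2.02 for Ndufa7 to 3.71 for Ndufa5, both accessory subunits. Ndufa5 had 1654, 1595, 1659 and 1660 CPM in heart, against a mean of 160.1 CPM over the other tissues (log2 fold change 3.71 ± 0.05 SE). The kidney libraries, the next highest, held 402.7, 408.1, 435.7 and 398.7 CPM of Ndufa5, and the blood libraries 34.94, 49.27, 53.81 and 39.69 CPM. No library of another tissue overlapped the heart libraries for it. Ndufv1, the subunit that binds NADH, rose by 3.42 in heart. Ndufa4, which carries a complex I name and has since been assigned to complex IV, averaged 2586 CPM in heart.

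All 4 genes of complex II, which is also the succinate dehydrogenase of the citric acid cycle, were called higher in heart, between 2.69 for the membrane anchor Sdhd and 3.47 for the iron-sulfur subunit Sdhb. Sdhb had 1640, 1644, 1602 and 1688 CPM in heart, against means of 72.91 CPM in spleen and 75.69 CPM in blood. All 8 complex III genes rose in heart, from 2.43 for Uqcrh to 3.32 for Uqcrfs1, the Rieske iron-sulfur protein. Uqcrfs1 had 1285, 1201, 1261 and 1132 CPM in heart, against a mean of 56.97 CPM in spleen. For Sdhb and Uqcrfs1 alike, the heart libraries lay far above every library of these immune tissues.

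In complex V, 17 of 17 tested members were called higher in heart (median 2.97), from 1.12 for Atp5l to 4.30 for Atp5g1. Atp5b, the catalytic beta subunit, had 6182, 6049, 5783 and 5957 CPM in heart, against 300.0, 277.0, 309.2 and 293.4 CPM in blood. Atp5g1 is one of several genes for the c subunit of the membrane rotor, which encode the same mature protein. It had 2478, 2437, 2150 and 2080 CPM in heart, against 457.2, 455.0, 442.5 and 415.6 CPM in kidney and a mean of 36.15 CPM in blood, and rose by 4.30 ± 0.08 SE (adjusted p = 3.13e-48). Within the reads of the 3 c-subunit genes, Atp5g1 took 33.2% ± 1.05 in heart, against 25.2% in skin, 21.9% in kidney and 17% in small intestine (SD, n = 4 each). In the female reproductive tract the share ranged from 11.41% to 52.48% between libraries, beyond the heart maximum of 34.53%. The gene with the smallest rise, Atp5l (subunit g), had only 23.74, 23.65, 22.17 and 16.34 CPM in heart and 10.63 CPM on average elsewhere. Its log2 fold change of 1.12 ± 0.18 SE by TMM turned to -0.24 with library totals, and its low counts, which near-identical copies may share, make it uncertain.

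Complex IV had 12 of 16 tested members called higher in heart (median 3.0), among them the shared subunits Cox4i1 (2.92) and Cox5a (3.44). Its values spread most widely of the complexes: the muscle isoforms rose by 8.31 or more on the log2 scale, while Cox6a1 and Cox8a were not called. Cox6a2 had 8055, 8012, 7305 and 7577 CPM in heart, against a median of 6.67 CPM over the other tissues. Cox7a1 had 3759, 3534, 3370 and 3740 CPM in heart, against a median of 10.5 CPM elsewhere. Cox8b had 2371, 2314, 2219 and 2397 CPM in heart, against a median of 7.89 CPM elsewhere. Heart libraries of each of the 3 isoforms were thus above every other library in the series. Log2 fold changes were 9.99 ± 0.13 for Cox6a2 (adjusted p = 5.63e-56), 8.31 ± 0.13 for Cox7a1 (adjusted p = 2.91e-51) and 8.42 ± 0.22 for Cox8b (adjusted p = 4.21e-40). Cox6a2 lies at chr7:128205435-128206387 on the minus strand, Cox7a1 at chr7:30184144-30186078 on the plus strand and Cox8b at chr7:140898945-140900446 on the minus strand (GRCm38). Cox6a2 overlaps Itgad on the opposite strand, and no source used here gives the strand setting of the counting, so reads of the pair cannot be told apart with certainty.

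**Figure D2:**
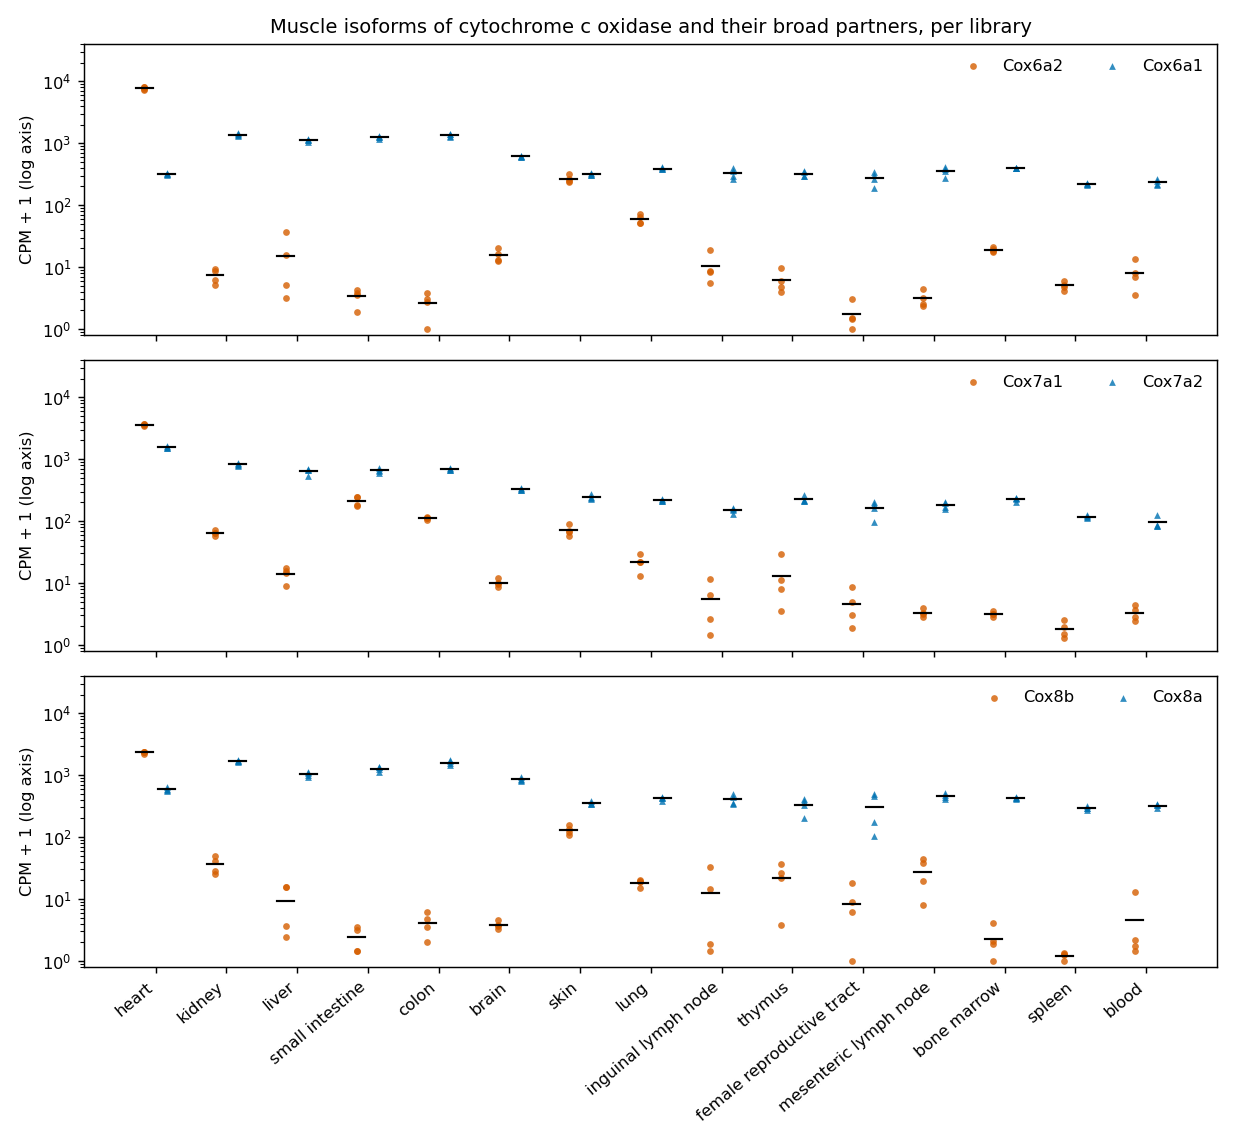
Each point is the CPM plus 1 of 1 library on a log axis, for the muscle isoforms Cox6a2, Cox7a1 and Cox8b beside their partners Cox6a1, Cox7a2 and Cox8a in 15 tissues, with a line at the mean of 4 libraries. The muscle isoforms peak in heart at 7737, 3601 and 2325 CPM on average, while Cox6a1 and Cox8a peak in kidney.

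Of the partner genes, Cox6a1 and Cox8a did not share the heart peak. Cox6a1 had 305.0, 334.7, 320.1 and 313.2 CPM in heart, against 1297, 1402, 1457 and 1331 CPM in kidney. Cox8a had 583.8, 640.6, 543.9 and 574.6 CPM in heart, against 1669, 1667, 1635 and 1726 CPM in kidney. For both, every heart library was below every kidney library. Cox7a2 differed from them: it had 1600, 1596, 1522 and 1531 CPM in heart, against a mean of 820.6 CPM in kidney, and rose in heart by 2.54 against the other 14 tissues. Cox6a1 had a log2 fold change of -0.61 ± 0.09 in heart (adjusted p = 4.26e-08), short of the threshold of 1 in size. For Cox8a the value was 0.05 ± 0.15 by TMM (adjusted p = 0.91) and -1.32 with library totals. Cox7a2l, a factor of respiratory supercomplex assembly, had 139.9, 151.1, 148.0 and 154.4 CPM in heart, against 106.5, 119.4, 108.0 and 104.7 CPM in blood. Its tissue means had the narrowest span of all 82 members, 1.41 on the log2(CPM + 1) scale, and its heart value of 0.78 ± 0.08 by TMM turned to -0.58 with library totals.

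Isoform use was also read as the share of the muscle isoform in the reads of its pair, which does not depend on scaling. Cox6a2 took 96.0% ± 0.228 of the Cox6a2 and Cox6a1 reads in heart, against 45.6% ± 3.90 in skin, 13.2% ± 1.99 in lung, 4.39% in bone marrow and 0.457% in kidney (SD, n = 4 each). Cox7a1 took 69.7% ± 1.02 in heart, against 24.1% ± 2.63 in small intestine, 22% ± 2.33 in skin, 13.7% ± 0.994 in colon, 8.74% in lung and 7.13% in kidney. Cox8b took 79.9% ± 1.06 in heart, against 26.8% ± 3.71 in skin, 6.08% ± 3.71 in thymus, 5.19% ± 2.94 in mesenteric lymph node and 2.05% in kidney. Skin was second to heart for Cox6a2 and Cox8b, while small intestine and skin overlapped for Cox7a1. Heart exceeded skin by 50.5 ± 1.95 percentage points for Cox6a2, 47.7 ± 1.27 for Cox7a1 and 53.1 ± 1.93 for Cox8b (SE). Each of the 3 differences had p = 0.0286 in a two-sided exact permutation test, the smallest that the 70 splits of 4 against 4 can give, and 0.0286 after adjustment over the 3. These are shares of bulk tissue, and reads of muscle in skin cannot be separated from those of its other cells. The differences therefore do not compare heart muscle with skeletal muscle.

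**Figure D3:**
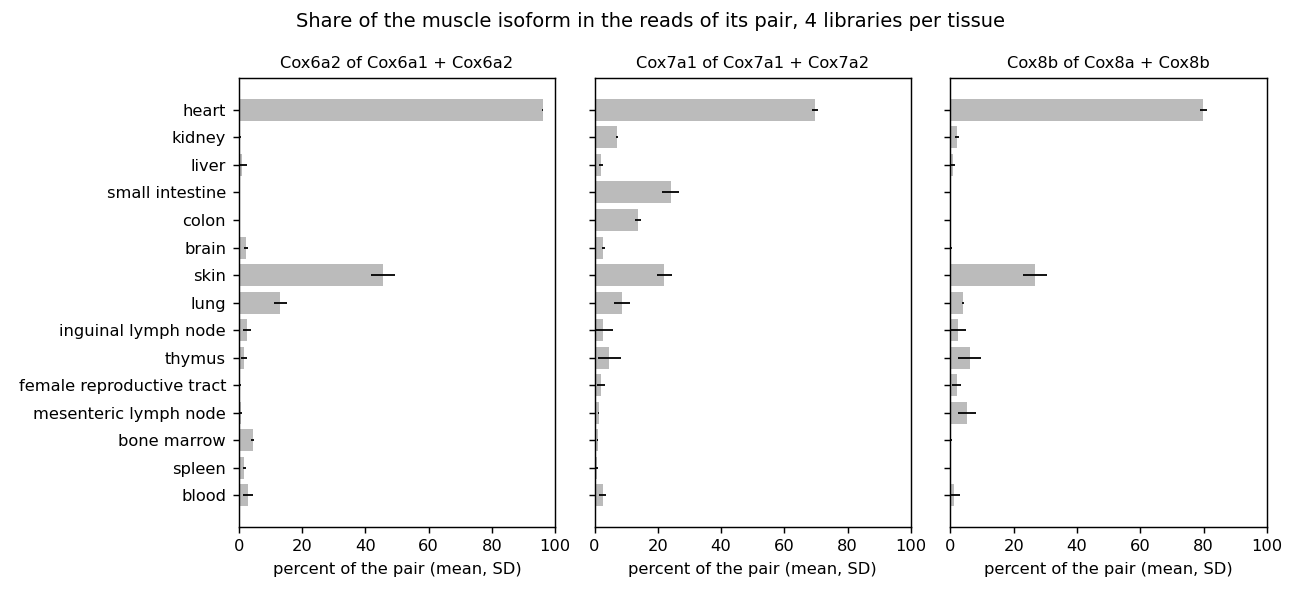
Horizontal bars give the muscle isoform's share of the reads of its pair, in percent, as the mean of 4 libraries with the SD, for Cox6a2, Cox7a1 and Cox8b in 15 tissues. Heart holds 96.0%, 69.7% and 79.9%, and skin 45.6%, 22% and 26.8%.

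Muscle isoforms outside the heart were measured together with muscle markers. In skin, Cox6a2 had 242.6, 259.8, 236.1 and 321.0 CPM and Cox8b had 108.3, 120.1, 133.0 and 155.5 CPM. Both were above every library of kidney and liver. The skeletal muscle list summed to 13436 to 18268 CPM in the skin libraries, while the cardiomyocyte list summed to 17.01 to 20.5 CPM there, with Myh6 and Nppa at 0. In lung, Cox6a2 had 51.18, 63.55, 51.01 and 70.75 CPM (log2 fold change 2.46 ± 0.23). The cardiomyocyte list summed to 417.3 to 558.0 CPM in lung, with Nppa at 0, and the skeletal muscle list to 6.62 to 190.2 CPM, and their part in this result was not tested. Among liver libraries Cox6a2 had 4.04, 2.17, 14.6 and 35.2 CPM, and Acta1, the actin of skeletal muscle, had 1.35, 2.17, 96.5 and 250.3 CPM in the same order. The same pair of liver libraries was thus high for both genes.

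Cox7a1 had a further pattern in the gut. It had 239.5, 183.9, 173.8 and 240.0 CPM in small intestine and 103.4, 109.2, 110.8 and 115.6 CPM in colon, against 66.42, 56.26, 67.03 and 89.35 CPM in skin and 62.39, 63, 70.36 and 56.48 CPM in kidney. All libraries of small intestine and colon lay above those of skin and kidney. It rose in small intestine by 3.91 ± 0.17 and in colon by 2.91 ± 0.21 against the other 14 tissues. A list of 7 pericyte and vascular smooth muscle genes summed to 639.5 CPM in small intestine and 1505 CPM in colon, and to 1233 CPM in the female reproductive tract, where Cox7a1 had 3.62 CPM. Cox6a2 and Cox8b did not follow Cox7a1 there: in small intestine they were called lower, at -2.52 ± 0.43 and -2.97 ± 0.88.

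Cox8b varied between libraries of thymus and lymph node. It had 35.39, 25.17, 2.83 and 20.63 CPM in thymus, where Ucp1, the uncoupling protein of brown fat, had 36.86, 21.95, 1.65 and 20.63 CPM. In mesenteric lymph node it had 6.93, 18.19, 42.59 and 36.43 CPM beside 141.0, 406.6, 476.0 and 892.5 CPM of the adipocyte hormone gene Adipoq. In inguinal lymph node it had 0.442, 0.847, 13.6 and 31.5 CPM beside 18.14, 0.423, 202.1 and 206.7 CPM of Adipoq. The thymus library lowest for Cox8b was also lowest for Ucp1, and the pair of inguinal libraries high for Cox8b was high for Adipoq. Kidney libraries held 23.87, 40.6, 48.71 and 26.93 CPM of Cox8b and 13.3, 20.65, 76.79 and 37.78 CPM of Ucp1. A brown fat list of 4 genes summed to 5.65 to 66.95 CPM in thymus and 24.55 to 98.1 CPM in kidney, with Elovl3 at 0 in kidney. That list averaged only 2.35 CPM in mesenteric and 4.49 CPM in inguinal lymph node. It was highest in the female reproductive tract (134.6 to 265.6 CPM), where Cox8b averaged 7.41 CPM. In brain it averaged 57.94 CPM, where Cox8b averaged 2.84 CPM. An adipocyte list of 5 genes summed to 458.6 to 2667 CPM in mesenteric lymph node. The part of fat in these Cox8b levels was not tested. The call of Cox8b in thymus (1.11 ± 0.42, adjusted p = 0.0183) was lost without replicate 1 (0.50, adjusted p = 0.364).

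Among the genes most like Cox6a2 by Pearson correlation over the 15 tissue means were Lmod2 (0.958), Gm11716 (0.955), Mypn (0.952) and Actn2 (0.952). For Cox7a1 they were Minos1 (0.934), Cox14 (0.930), Slc25a34 (0.927), Cs (0.926) and Ogdh (0.925), and for Cox8b Gnpat (0.906), Myom2 (0.897), Tmem182 (0.894), Dusp27 (0.891) and Perm1 (0.889). Lmod2, Mypn and Actn2 encode proteins of the sarcomere, and Cs and Ogdh enzymes of the citric acid cycle.

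The promoters of Cox7a1, Cox8b, Cox7a2, Cox8a and Cox6a1 are shown to compare their CG content; Cox6a2 is not shown. The sequences are the 250 bases before each start in RefSeq (GRCm38.p6), 5′ to 3′ on the gene's strand, with capitals marking CG pairs. Cox7a1 lies at chr7:30183921-30184170 (plus strand), Cox8b at chr7:140900447-140900696 (minus), Cox7a2 at chr9:79759854-79760103 (minus), Cox8a at chr19:7217617-7217866 (minus) and Cox6a1 at chr5:115348959-115349208 (minus).
Cox7a1: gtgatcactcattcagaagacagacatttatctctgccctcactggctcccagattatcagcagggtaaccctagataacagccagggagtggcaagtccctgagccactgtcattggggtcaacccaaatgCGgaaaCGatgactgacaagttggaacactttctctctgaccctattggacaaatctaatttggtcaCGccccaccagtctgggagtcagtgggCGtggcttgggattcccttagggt
Cox8b: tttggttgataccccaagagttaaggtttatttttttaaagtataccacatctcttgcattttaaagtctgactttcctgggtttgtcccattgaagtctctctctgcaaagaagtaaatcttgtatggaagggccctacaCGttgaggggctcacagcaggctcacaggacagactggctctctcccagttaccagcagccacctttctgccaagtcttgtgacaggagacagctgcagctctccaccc
Cox7a2: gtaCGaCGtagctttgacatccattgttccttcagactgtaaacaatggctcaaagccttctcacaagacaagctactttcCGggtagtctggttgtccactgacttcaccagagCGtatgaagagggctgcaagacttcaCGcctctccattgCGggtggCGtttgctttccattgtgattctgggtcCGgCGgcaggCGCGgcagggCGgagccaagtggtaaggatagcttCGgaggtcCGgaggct
Cox8a: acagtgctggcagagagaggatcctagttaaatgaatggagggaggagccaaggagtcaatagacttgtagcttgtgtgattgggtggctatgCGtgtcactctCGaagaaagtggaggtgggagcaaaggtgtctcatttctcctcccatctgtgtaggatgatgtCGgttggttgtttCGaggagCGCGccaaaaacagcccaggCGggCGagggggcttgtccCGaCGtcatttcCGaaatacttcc
Cox6a1: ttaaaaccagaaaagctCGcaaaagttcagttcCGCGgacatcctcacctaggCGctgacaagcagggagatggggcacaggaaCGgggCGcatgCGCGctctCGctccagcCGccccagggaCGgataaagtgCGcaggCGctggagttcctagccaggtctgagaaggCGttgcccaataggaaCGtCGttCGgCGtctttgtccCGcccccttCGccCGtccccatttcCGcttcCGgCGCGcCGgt
Cox7a1 and Cox8b had 4 and 1 CG pairs, against 14, 11 and 26 for Cox7a2, Cox8a and Cox6a1. Over the 66 member symbols with a promoter in the table the median was 14, and over all 32851 promoters it was 6. Cox8b had the fewest of the 66. Promoters with 4 or fewer CG pairs made up 44.4% of all, and those with 1 or none 18.8%. The motif of NRF1, a regulator of nuclear mitochondrial genes (GCGCA and GCGC with 1 base of any kind between them), was searched on both strands and found in 12 of 66 member promoters (18.2%), against 3.74% of all. Cox6a1 held it at 162 to 153 bases before the start, on both strands, and at 117 to 108 bases. The ETS motif CCGGAAGT was in 4.55% of member promoters and 2.88% of all, and the ERR motif TCAAGGTCA in 1.52% (Atp5g3) and 0.387% of all. A loose form of the MEF2 motif (CTA and TAG with 4 bases of any kind between them) was in 1.52% (Cox5b) and 3.2% of all. The YY1 motif AAGATGGCG was in 0 of the 66 and 0.606% of all. None of these letters stood in the Cox7a1, Cox8b, Cox7a2 or Cox8a windows, which says nothing of binding.

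Heart was set directly against kidney and against skin, each on its own 8 libraries. Against kidney, the tissue with the next highest members by TMM, 70 members were called higher in heart, against 17% of the 12340 genes tested, with a median of 1.5. The largest rises were again Cox6a2 (10.20 ± 0.11), Cox8b (6.02 ± 0.13) and Cox7a1 (5.80 ± 0.08), followed by Atp5g1 (2.34 ± 0.07). Only 3 members were called lower in heart than in kidney, against 23.1% of genes: Cox6a1 (-2.14 ± 0.06, adjusted p = 4.13e-18), Cox8a (-1.55 ± 0.06, adjusted p = 7.59e-16) and Cox6b2 (-1.51 ± 0.26, adjusted p = 3.2e-05). With library totals 17 were called higher, against 8.72% of genes, the all-gene median was -0.89, and the members' median stood 1.56 above the all-gene median under either scaling.

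Against skin, where skeletal muscle genes were measured as well, 77 members were called higher in heart, against 20.0% of the 12618 genes tested, with a median of 2.98. Cox7a1 (5.65 ± 0.11), Cox6a2 (4.83 ± 0.10), Cox4i2 (4.21 ± 0.44) and Cox8b (4.12 ± 0.10) led. The size for Cox4i2 is uncertain, as it had 7 reads in the 4 skin libraries (0.66 CPM on average, against 14.67 CPM in heart). Only Ndufa4l2 was called lower in heart (-2.06 ± 0.12, adjusted p = 1.53e-11), against 24.9% of genes. Cox7a2l (0.82), Cox8a (0.68), Cox6b2 (0.27) and Cox6a1 (-0.03) were not called. With library totals 67 were higher, against 7.45% of genes, and 3 lower, against 65.8%, namely Cox6a1, Cox6b2 and Ndufa4l2.

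In kidney, 67 members were called higher than in the other 14 tissues, against 21.8% of genes, with a median log2 fold change of 1.29. They were spread over all complexes, with 31 of 37 in complex I, 4 of 4 in complex II, 7 of 8 in complex III, 12 of 16 in complex IV and 13 of 17 in complex V. Ndufb8, an accessory subunit of the complex I membrane arm, rose by 1.83 ± 0.09, with a mean of 238.5 CPM in kidney and a median of 51.61 CPM elsewhere. The general isoforms Cox8a (1.67) and Cox6a1 (1.65) rose by nearly as much. Cox7a1 was called higher too (2.05 ± 0.20), where the other tissues enter as log2 values: its mean of 63.06 CPM in kidney is above the median of 10.5 CPM elsewhere. With library totals 28 members were called higher in kidney, against 15.6% of genes.

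In liver, 53 members were called higher, against 18.4% of genes, with a median of 1.10 against -0.25 over all genes. Complex III genes summed to 4906 CPM in liver and 4224 CPM in kidney, while the mean of each other complex was higher in kidney. Uqcrq alone set this order: without it, complex III summed to 3404 ± 125.0 CPM in liver and 3518 ± 107.6 CPM in kidney (SD, n = 4 each), and the libraries overlapped. Uqcrq, a small subunit of complex III, had 1532, 1495, 1491 and 1492 CPM in liver, against a mean of 706.5 CPM in kidney and a median of 217.6 CPM elsewhere (log2 fold change 2.39 ± 0.08, adjusted p = 6.47e-34). Ndufa4 had 1342, 1157, 1189 and 1069 CPM in liver and rose by 1.93 ± 0.08, and Sdhd rose by 1.84 ± 0.09. Cox6b2 was the 1 member called lower in liver, against 16.7% of genes, at 6 reads in 4 libraries (-3.35 ± 0.41, adjusted p = 1.48e-10). The count in liver rests on scaling: with library totals, which put the all-gene median at -1.23, 1 member (Uqcrq, 1.33) was called higher, against 9.76% of genes, and 4 (Cox6b2, Cox7a1, Atp5l and Cox7a2l) were called lower, against 40.4%. Cox6b1 turned to -0.02 under that scaling, while the members stood 1.35 above the all-gene median by TMM and 1.27 by library totals.

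In small intestine 32 members were called higher, against 19.9% of genes, and in colon 27, against 17.7%. Medians were 0.92 and 0.78. In small intestine the c-subunit gene Atp5g3 had 1728, 1503, 1390 and 1599 CPM, against a median of 354 CPM elsewhere, and rose by 1.69 ± 0.08. In colon, complex IV led, with 10 of 16 members called and a median of 1.23, against 6 of 37 and 0.59 in complex I. Cox5a, a complex IV subunit used in all tissues, had 299.2, 265.7, 260.2 and 221.7 CPM in colon, against a median of 51.3 CPM elsewhere, and rose by 1.92 ± 0.10. Cox7b rose in colon by 1.63 ± 0.11. Many members lay near the threshold of 1: by adjusted p alone 76 were called higher in small intestine, against 32.8% of genes, and 71 in colon, against 27.9%. With library totals the numbers were 15 in small intestine, against 17.2% of genes, and 51 in colon, against 23.9%.

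In blood, 65 members were called lower than in the other 14 tissues, against 17.8% of genes, with a median of -1.47 against -0.18 over all genes. Per complex these were 28 of 37 in complex I, 4 of 4 in complex II, 8 of 8 in complex III, 11 of 16 in complex IV and 14 of 17 in complex V. Ndufc1, an accessory subunit of complex I, had 28.13, 23.97, 31.93 and 30.35 CPM in blood, against a median of 130.8 CPM elsewhere, and fell by 2.41 ± 0.13. Its 4 blood libraries lay below every spleen library. Ndufs5 fell by 2.45 ± 0.24 and Ndufc2 by 2.24, both also accessory subunits of complex I. The 17 members that were not called included Atp5l (0.46), Cox6b2 (0.34), Cox7a2l (0.31) and Cox5a (-0.39). Cox4i2 and Ndufa4l2 had 0 reads in blood, which allows up to 0.340 CPM, and setting them at that bound left the median at -1.47. By library totals fewer members were called lower in blood than by TMM. The median of the members was then -1.26, against 0.02 over all genes. Erythroid genes summed to 1040 to 1693 CPM in blood, and their part was not tested.

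In spleen, 61 members were called lower, against 9.16% of genes, with a median of -1.21. Uqcr11, a small subunit of complex III, had 77.41, 69.97, 83.41 and 75.01 CPM in spleen, against a median of 185.4 CPM elsewhere, and fell by 1.75 ± 0.10. Its spleen libraries overlapped those of blood. Ndufb9 fell in spleen by 1.72 and Ndufa5 by 1.69, and Cox8b had 3 reads in all. With library totals 22 members were called lower in spleen, against 5.28% of genes. In the 6 immune tissues together (blood, bone marrow, spleen, thymus and both lymph nodes), 74 members were called lower than in the 9 non-immune tissues, against 19.1% of genes, with a median of -1.43. Atp5g1 averaged 60.67 CPM in immune and 467.6 CPM in non-immune tissues (-2.13 ± 0.07), and Ndufa5 66.1 and 387.5 CPM (-2.02 ± 0.04). The steepest was Cox7a1 (-4.29 ± 0.18), at 4.02 CPM in immune and 455.4 CPM in non-immune tissues. These non-immune means include heart, at 3601 CPM for Cox7a1, 2286 CPM for Atp5g1 and 1642 CPM for Ndufa5. Cox7a1 averaged 69.76 CPM in skin, 63.06 CPM in kidney and 9.06 CPM in brain. Low levels were not confined to immune tissues: against the other 14 tissues, the members' median was about as low in lung and the female reproductive tract as in thymus. The test of immune against non-immune tissues uses the spread between libraries within tissues, not the spread between tissues. It therefore cannot decide whether low levels are a trait of immune tissues as a class. The log2 fold changes of this comparison weigh the tissues equally as log2 values. Not called were Atp5l (0.25), Cox7a2l (0.07), Cox6b2 (-0.07), Atp5g2 (-0.33), Atp5e (-0.80), Ndufb7 (-0.93), Ndufs4 (-0.93) and Ndufs8 (-0.98). With library totals 37 members were called lower in the immune tissues, against 14% of genes.

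The remaining tissues lay between these ends. The median log2 fold change of the members was -0.02 in brain, -0.27 in skin, -0.64 in thymus and in the female reproductive tract, -0.65 in lung, -0.70 in bone marrow and -0.74 in both lymph nodes. In lung, Uqcrc2, a core protein of complex III, had 20.31, 18.28, 28.48 and 22.06 CPM, against a median of 43.59 CPM elsewhere, and fell by 1.55 ± 0.17. Ndufa10, an accessory subunit of complex I, fell in lung by 1.49 ± 0.14. In bone marrow, Ndufa5 fell by 1.26 ± 0.09 and the muscle isoforms Cox8b and Cox7a1 by 3.19 and 3.14. In brain, the c-subunit gene Atp5g2 fell by 1.41 ± 0.23, at 36 reads in 4 libraries, and the rise of Atp5s (1.01 ± 0.14) lay at the threshold and was 0.93 without replicate 3.

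Members were also placed against the median member of the same library as log2(CPM + 1). This removes the general level of the chain and, for genes with many reads, the scaling. For genes with few reads the added 1 keeps a part of the scaling, and at 0 reads the value only mirrors the median member. In heart, Cox6a1 lay 3.39 ± 0.09 and Cox8a 2.76 ± 0.10 below their usual distance from it on the log2 scale, and Atp5g1 1.18 ± 0.10 above (SD, n = 4). Uqcrq lay 1.09 ± 0.08 above in liver, and Cox5a 1.08 ± 0.15 above in colon. In the female reproductive tract Cox5a was at -1.36 ± 0.87, with 28.84, 29.8, 6.23 and 14.46 CPM, the lowest of these in the shallowest library. It fell there by 1.76 against the other tissues, and by 1.39 without reproductive tract replicates 3 and 4 and thymus replicate 4. In blood, Atp5l (1.64), Cox7a2l (1.55) and Cox6b2 (1.46) had the highest values, and their libraries overlapped.

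**Figure D4:**
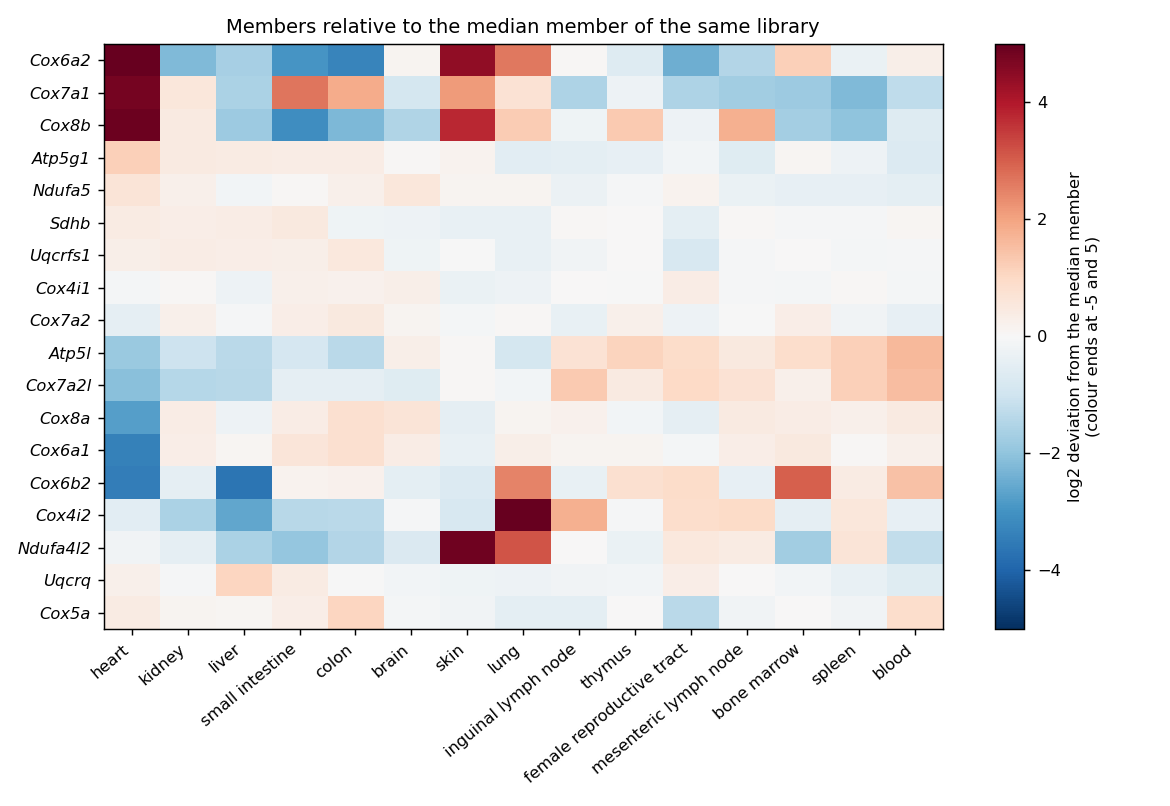
Colour gives, for 18 members (vertical) in 15 tissues (horizontal), the mean log2 deviation from the median member of the same library, relative to the gene's mean over tissues, with the scale ending at -5 and 5. Muscle isoforms stand out in heart and skin, Cox4i2 in lung, Ndufa4l2 in skin and lung, and Cox6b2 in bone marrow and lung.

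Cox4i2, Ndufa4l2 and Cox6b2 were highest outside the heart. Cox4i2, the lung isoform of subunit 4, had 58.49, 80.09, 64.92 and 82.93 CPM in lung, against 15.66, 10.8, 17.01 and 15.21 CPM in heart and a mean of 6.13 CPM in inguinal lymph node. It rose in lung by 5.80 ± 0.21 and in inguinal lymph node by 2.02 ± 0.27, and it took 16.8% ± 2.15 of the Cox4i2 and Cox4i1 reads in lung, against 0.357% in heart. Cox4i2 had 0 reads in blood and 1 in liver, which enter the reference as fitted values, so the size of these rises is uncertain. Its lung libraries did not overlap those of any other tissue. Ndufa4l2, a paralog of Ndufa4 induced by low oxygen, had 161.2, 113.0, 143.3 and 142.8 CPM in skin, 33.31, 27.86, 37.09 and 33.47 CPM in lung and 34.85, 31.36, 37.12 and 35.49 CPM in heart. It rose in skin by 5.79 ± 0.15 and in lung by 3.56 ± 0.24, sizes that are uncertain too, with 0 reads in blood and bone marrow. Its share beside Ndufa4 was 27.8% ± 4.16 in skin, 13.5% ± 1.35 in lung and 1.33% in heart. Lung and heart libraries thus overlapped in its level but not in its share. It overlaps Shmt2 on the opposite strand, with the same uncertainty of counting. The 7 pericyte and vascular smooth muscle genes, markers of cells in which Ndufa4l2 is known to be expressed, summed to 334.3 to 394.8 CPM in lung, 196.4 to 229.0 CPM in skin and 1232 to 1377 CPM in heart, and their part was not tested.

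Cox6b2, known as the testis isoform of subunit 6b, had 49.49, 47.5, 51.6 and 49.53 CPM in bone marrow and 41.43, 38.31, 43.72 and 34.24 CPM in lung, against 6.06, 3.60, 6.19 and 9.01 CPM in heart. Bone marrow and lung were the highest tissues and did not overlap each other. It rose in bone marrow by 2.54 ± 0.14, and it took 12.7% ± 0.285 of the Cox6b2 and Cox6b1 reads in bone marrow and 10.2% ± 0.335 in lung, against 0.204% in heart. The 3 erythroid genes of the marker list summed to 50133 CPM in bone marrow, against 1506 CPM in spleen and 468.2 CPM in lung, and their part was not tested.

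**Figure D5:**
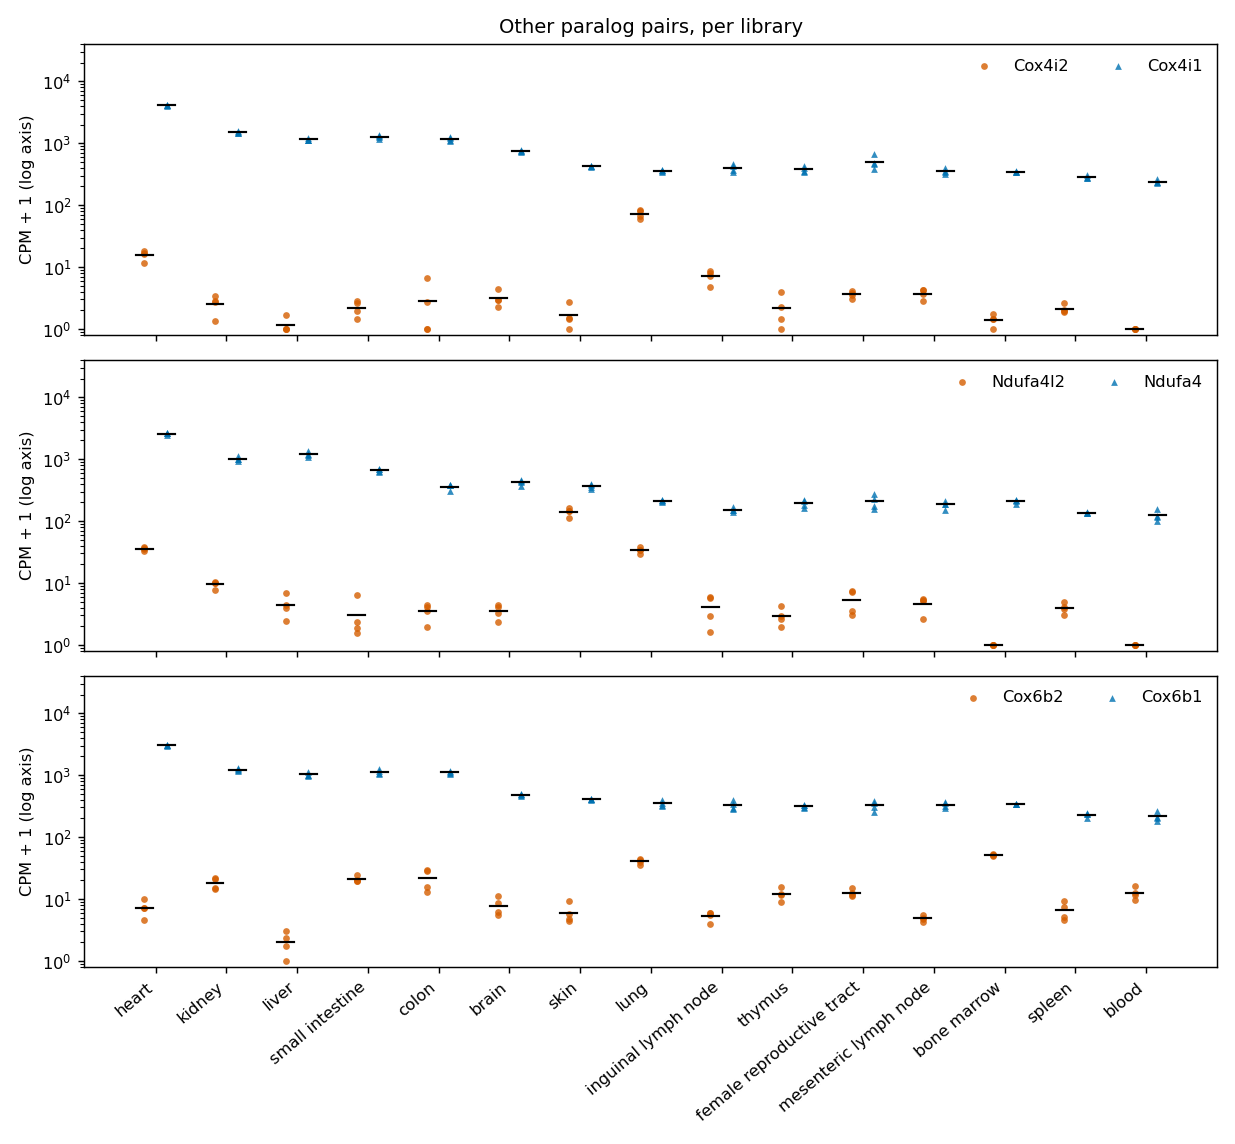
Each point is the CPM plus 1 of 1 library on a log axis, for Cox4i2 beside Cox4i1, Ndufa4l2 beside Ndufa4 and Cox6b2 beside Cox6b1 in 15 tissues, with a line at the mean of 4 libraries. Cox4i2 is highest in lung at 71.6 CPM, Ndufa4l2 in skin at 140.1 CPM, and Cox6b2 in bone marrow, while their partners are highest in heart.

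Other genes of the chain were read beside the members. In heart, where 20.7% of all genes were called higher, the 4 electron carrier genes rose together: Cycs (cytochrome c) by 3.68, Etfdh by 3.60, Etfa by 3.36 and Etfb by 3.25. All 12 citric acid cycle genes rose in heart as well, from 2.12 for Suclg2 to 3.53 for Idh3a, with a median of 2.94. The same list gave 10 of 12 higher in kidney, against 21.8% of all genes, 6 of 12 lower in blood, against 17.8%, and 10 of 12 lower in the immune tissues, against 19.1%, where Idh3g (-0.73) and Dlst (-0.81) were not called. Nuclear subunits outside the symbol rule gave 4 of 5, with Cyc1, the cytochrome c1 of complex III, at 3.30 and Atpif1, the ATP synthase inhibitor, at 0.78 and not called. The 8 tested protein genes of the mitochondrial genome all rose, with a median of 3.99.

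Assembly factors, which build the complexes without staying in them, had lower medians than the subunits. In heart 13 of 14 complex I factors were called higher, against 20.7% of all genes, with a median of 1.58, among them Ndufaf4 (2.57), and 11 of 17 complex IV factors with a median of 1.04, where Surf1 (0.21), Cox18 (0.19) and Pet100 (0.20) were not called and Cox10 rose by 2.62. The factors of complex II gave 3 of 4 (median 1.24), those of complex III 4 of 6 (median 1.90), led by Lyrm7 (2.67), and those of ATP synthase 2 of 3 (median 1.67). The medians of 1.04 and 1.24 are smaller than the gap between the all-gene medians in heart, -0.12 by TMM and -1.38 by library totals, so their direction depends on the scaling. In kidney 7 of 14 complex I factors and 1 of 17 complex IV factors (Coa6, 1.53) were called higher, against 21.8% of all genes. Of 11 regulators of mitochondrial genes, 6 rose in heart: Ppara (4.86), Ppargc1a (4.73), Esrrg (4.44), Ppargc1b (2.70), Esrra (2.07) and Tfb2m (1.71). Tfam (0.73), Gabpa (0.83) and Nrf1 (-0.70) were not called. In kidney, Ppara (5.07), Esrrg (5.04) and Ppargc1a (4.08) rose and Pprc1 fell by 1.07, and in the immune tissues Ppara (-4.39), Ppargc1a (-3.88), Esrrg (-3.53) and Esrra (-1.23) fell while Nrf1 rose by 1.24. Of 8 genes listed for adenine nucleotide and phosphate exchange (Slc25a carriers, Vdac channels and mitochondrial creatine kinases), 6 rose in heart. The muscle creatine kinase Ckmt2 led at 11.56 ± 0.14, followed by the carrier Slc25a4 at 6.09, while Ckmt1 fell by 2.13 and Slc25a5 (0.26) was not called.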

How the data were processed

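Per the submitters' processing notes, the deposited counts are whole numbers of reads per gene, made by the authors with FastQC, STAR and featureCounts on mm10; versions, annotation and strand setting were not found in the labels. Reads from 3′ ends count transcripts, so low depth limits low genes: libraries held 353605 to 5211133 reads (median 2649668). The limit for a count of 0 (3 reads over a group) covers counting error only. The members and lists were chosen with earlier results of these data known.

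One edgeR 4.0.16 model (R 4.3.3, limma 3.58.1) with 15 tissue means was fitted to the 60 libraries after TMM scaling and filterByExpr (minimum count 10, minimum total 15), with no covariate. Tissues were each set against the log2 mean of the other 14, weighted equally, the 6 immune tissues with the 9 others, and heart with kidney and with skin on 8 libraries each. The quasi-likelihood test was adjusted by Benjamini-Hochberg over all genes tested. A call needed an adjusted p under 0.05 with a log2 fold change above 1 or below -1, whose SE is its size over the square root of F.

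Genes named were the isoform genes, the 3 members with the largest called change per comparison and direction with a mean of at least 5 CPM in the higher group, the highest and lowest member of each complex in heart, and the widest and narrowest ranges; genes described beyond these were chosen after their values were seen. Genes most like an isoform were the 5 with the highest Pearson correlation of log2(CPM + 1) over 15 tissue means; 1 of them is not reported here. Isoform shares were taken from reads and compared by exact permutation over 70 splits. Alternatives were DESeq2 1.42.0 (its test and its size factors), library totals, TMM without mitochondrial genes, no filter, adjusted p alone, a replicate block, and left-out libraries. The model was tested on simulated data. Positions of 54495 of 54532 genes came from GENCODE M21. Tables and plots used Python 3.11.15, pandas 2.3.3, scipy 1.17.1 and matplotlib 3.10.9.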

Additional observations from a re-analysis of the deposited data

Results flagged for a closer look

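Of 207 groups, each 1 isoform gene in the 4 libraries of 1 tissue, with a mean of 5 CPM or more, 9 had 1 library far from the other 3 of its tissue by Dixon's 95% criterion, which chance alone gives in about 1 in 20 groups. Cox7a2 was high in blood replicate 3 (122.7 CPM, against 82.67 to 86.78 CPM in the others) and in thymus replicate 1 (259.2 CPM, against 212.4 to 214.1), and low in liver replicate 4 (538.0 CPM, against 660.3 to 685.5). Cox8a was low in blood replicate 1 (288.9 CPM, against 327.6 to 335.4). Ndufa4 was low in colon replicate 2 (305.9 CPM, against 375.5 to 380.4) and high in spleen replicate 2 (141.2 CPM, against 132.7 to 134.1). Ndufa4l2 was low in kidney replicate 3 (6.77 CPM, against 8.98 to 9.21), and Cox7b was high in the same library (906.9 CPM, against 874.9 to 876.7). Atp5g2 was low in colon replicate 4 (4.78 CPM, against 10.07 to 11.02).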

How the results depend on the processing

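The counts of members called (heart 78, kidney 67, liver 53, small intestine 32, colon 27, blood 65, spleen 61, immune tissues 74, heart against kidney 70 higher and 3 lower, heart against skin 77 higher and 1 lower) were the same with the replicate block. Deviations of same-numbered libraries of different tissues had a median correlation of 0.016 over 420 library pairs, with 7 above 0.1. For libraries of other numbers the median was -0.006 over 1260 pairs, with 20 above 0.1. Such low correlations cannot tell whether same-numbered libraries came from the same mouse. Library totals moved most counts: to 28 in kidney, 1 in liver, 15 in small intestine, 51 in colon, 22 in spleen, 37 in immune tissues, 17 higher in heart against kidney and 3 lower in heart against skin. The count in blood fell as well. Adjusted p alone gave 76 in small intestine and 71 in colon. Under library totals Atp5l in heart turned to -0.24 and Cox6b1 in liver to -0.015, and of 328 values of named genes 46 lost their call and 14 gained one; with DESeq2's test 3 lost it and 8 gained one, and no direction changed. The cause of these moves was not tested. Leaving out replicates in turn gave 78 to 78 in heart, 65 to 67 in kidney, 51 to 54 in liver, 25 to 36 in small intestine, 21 to 23 in colon, 56 to 63 in blood, 60 to 65 in spleen and 73 to 75 in immune tissues. Heart against kidney ranged from 68 to 73 higher and from 3 to 3 lower, and heart against skin from 76 to 77 higher and from 1 to 1 lower. Differences of isoform shares ranged from 49.44 to 52.27 percentage points for Cox6a2, 46.74 to 48.6 for Cox7a1 and 51.52 to 54.5 for Cox8b. Single libraries were left out in heart, kidney, blood and skin, and in the other tissues only all libraries of 1 number together. Leaving out female reproductive tract replicates 3 and 4 and thymus replicate 4 was chosen after seeing the data; among the values of named genes 6 lost their call and 1 gained one. Depth limits the genes with few reads: Cox4i2 and Ndufa4l2 in blood, and Cox6b2 in liver.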
